A study of Mus musculus with 4 samples.

Results

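The miR-1 and miR-206 family was examined in the small RNA profiles of C2C12 myotubes. C2C12 is a mouse skeletal myoblast line (strain background 129/Rej in the sample labels) whose cells fuse into multinucleated myotubes when serum is lowered. The family was taken as the rows named miR-1a-3p, miR-1a-1-5p, miR-1b-3p, miR-206-3p and miR-206-5p, which makes 5 of the 869 miRNAs with reads in any sample. Each of the 5 had reads in at least 1 sample, and 4 of them, all but miR-1b-3p, had reads in all 4 samples. The members were chosen by name and by no cut on a measured value, but with earlier results of these data known. Small RNA was collected on day 6 of differentiation from 2 negative control samples (NC, differentiation medium with horse serum and no guanidinoacetic acid) and from 2 samples kept in the same medium with 20 mM guanidinoacetic acid (GAA, the direct precursor of creatine). The comparison asked which miRNAs differed in GAA-treated myotubes. The labels do not say whether the samples of a group came from separate cultures, so the p-values cover only the spread between these samples.

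MiR-1 and miR-206 are small RNAs of striated muscle. The 3p arm of both enters the silencing complex and pairs with mRNAs mainly through its seed (bases 2 to 8 from its 5′ end), which the miR-1 and miR-206 guides have in common, so that they share many targets. MiR-1 genes lie next to miR-133a genes and are transcribed in heart and skeletal muscle, whereas the miR-206 gene lies next to miR-133b and is largely restricted to skeletal muscle. Myogenic factors such as MyoD switch these genes on when myoblasts leave the cell cycle and fuse, and the miRNAs in turn repress regulators of proliferation and of alternative fates.

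The mature sequences of 3 members are shown because the results turn on their seed and on the difference between the opposite arms (RefSeq, GRCm38.p6, with the seed in capitals).
miR-206-3p: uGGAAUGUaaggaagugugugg
miR-206-5p: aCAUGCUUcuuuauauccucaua
miR-1a-1-5p: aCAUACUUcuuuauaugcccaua
MiR-206-3p is the guide of Mir206 and lies at chr1:20679055-20679076 on the plus strand, with miR-206-5p at chr1:20679017-20679039 on the same hairpin. MiR-1a-1-5p is the opposite arm of Mir1a-1 and lies at chr2:180389057-180389079, also on the plus strand. The 5p arms of the paralogous genes are identical at 20 of 23 positions. Counted from 1 at the 5′ end and with the base of miR-206-5p first, they differ at G5A, C17G and U19C, of which G5A falls in the seed. The seeds of the 5p arms were each found in no other of the 1738 mature miRNAs of the RefSeq table. Besides the miR-1 guides, which share it, the seed of miR-206-3p was found in miR-6349 and miR-6382 of that table, and neither had reads in any of the 4 samples. No sequence is shown for miR-1a-3p and miR-1b-3p.

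In the GENCODE M21 annotation of GRCm38, Mir206 spans chr1:20679010-20679082 and lies within an exon of the lincRNA gene Gm28653 on the same strand. Mir133b follows 3686 bases downstream and lies in an exon of the same lincRNA gene. Mir1a-1 spans chr2:180389048-180389124, where no other gene is annotated over it, and Mir133a-2 follows 9254 bases downstream on the same strand. Mature miR-1a-3p is also made from another gene, Mir1a-2, and its reads therefore stand for both genes, whereas miR-1a-1-5p reads come from Mir1a-1 alone. No row was present for miR-1a-2-5p or miR-1b-5p.

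The deposited value of each miRNA was log2(RPM + 1), with RPM being its reads per 1000000 mappable reads. The mappable reads numbered 4732359 to 5657704 per sample. Known miRNAs took 33.6% and 43.6% of the mappable reads in NC and 56.3% and 50.4% in GAA, so RPM and the share of all miRNA reads were not interchangeable. Both are given for the family and its neighbours, the second as miRNA RPM (reads per 1000000 miRNA reads). Mature miRNAs are of nearly equal length, and levels are compared without division by length. The libraries were made by ligation of adaptors, and whether different miRNAs were captured equally was not tested. Ranks and ratios between different miRNAs are therefore those of reads, not of molecules. Other muscle miRNAs were read in the cultures. The guides miR-133a-3p and miR-133b-3p of the neighbouring genes ranked 28 and 33 of all miRNAs by mean RPM, and miR-208b-3p, from an intron of a slow myosin gene, ranked 251 and was read 92 and 84 times in NC but 17 and 8 times in GAA. MiR-208a-3p, which is encoded in the cardiac alpha myosin gene, had no row. The miRNAs fixed as markers of blood cells and liver, 8 of 8 with reads in at least 1 sample, together reached 11.2 to 15.2 RPM in NC and 16.4 to 24.4 RPM in GAA. The most read of these in each sample was the blood cell miR-142a-5p, found 30 and 34 times in NC and 94 and 76 times in GAA. It was higher in both GAA samples on both scales (log2 difference 1.08 in RPM, adjusted p = 0.205, and 0.68 in miRNA RPM, adjusted p = 0.565, by limma). In RPM, 2 of the 8 had both GAA samples lower, 3 had both higher and 3 overlapped. In miRNA RPM these counts were 2, 2 and 4. Over all 869 miRNAs, 5.52% were lower and 38.6% higher in this way in RPM, and 13.5% and 18% in miRNA RPM. The largest fall in the list was that of the blood cell miR-144-3p, read 25 and 9 times in NC and 1 and 4 times in GAA. Its log2 difference was -1.57 in RPM (adjusted p = 0.254 by limma). The erythroid miR-451a was read 10 and 4 times in NC and 4 and 1 times in GAA, and the myeloid miR-223-3p had 1 read in GAA-1 and none elsewhere. The liver miRNA miR-122-5p had no reads in NC, and 17 and 2 in GAA. The part of other cell types or of serum in the values of the family was not tested.

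MiR-206-3p was the dominant member of the family by reads in every sample. The NC samples held 494 and 553 RPM and the GAA samples 406 and 355 RPM (samples 1 and 2 of each group), based on 2431, 2619, 2258 and 2010 reads. It ranked 75 among the 869 miRNAs by mean RPM, between miR-214-3p (382 to 558 RPM over the 4 samples) and miR-29b-3p (307 to 544 RPM). This place holds for the mean of all samples only. The mean log2(RPM + 1) of miR-206-3p was 9.03 in NC and 8.57 in GAA. That of miR-214-3p was 8.59 and 9.08, and that of miR-29b-3p 8.46 and 8.98. By these means miR-206-3p lay above both neighbours in NC and below both in GAA.

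MiR-1a-3p, the miR-1 guide, followed far below and ranked 183. Its level was 34.3 and 46.1 RPM for NC and 27.1 and 19.3 RPM for GAA, based on 169, 218, 151 and 109 reads. Next in the order was miR-206-5p, the opposite arm of Mir206, at rank 257. It stood at 7.11 and 10.4 RPM in NC and 10.1 and 6.89 RPM in GAA, from 35, 49, 56 and 39 reads. MiR-1a-1-5p ranked 392, with 1.62 and 2.11 RPM for NC and 0.539 and 0.707 RPM for GAA, from 8, 10, 3 and 4 reads. The order of these 4 members was the same in all 4 samples, and the range of each over the samples did not overlap that of the next.

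MiR-1b-3p was barely sampled. It had 1 read in NC-2 (0.211 RPM) and none in the other samples, which allows a level of up to 0.609 RPM for NC-1, 0.539 RPM for GAA-1 and 0.530 RPM for GAA-2 (the level of 3 reads). No fold change is given for it. Its absence from the GAA samples was not separable from the single read in NC.

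**Figure D1:**
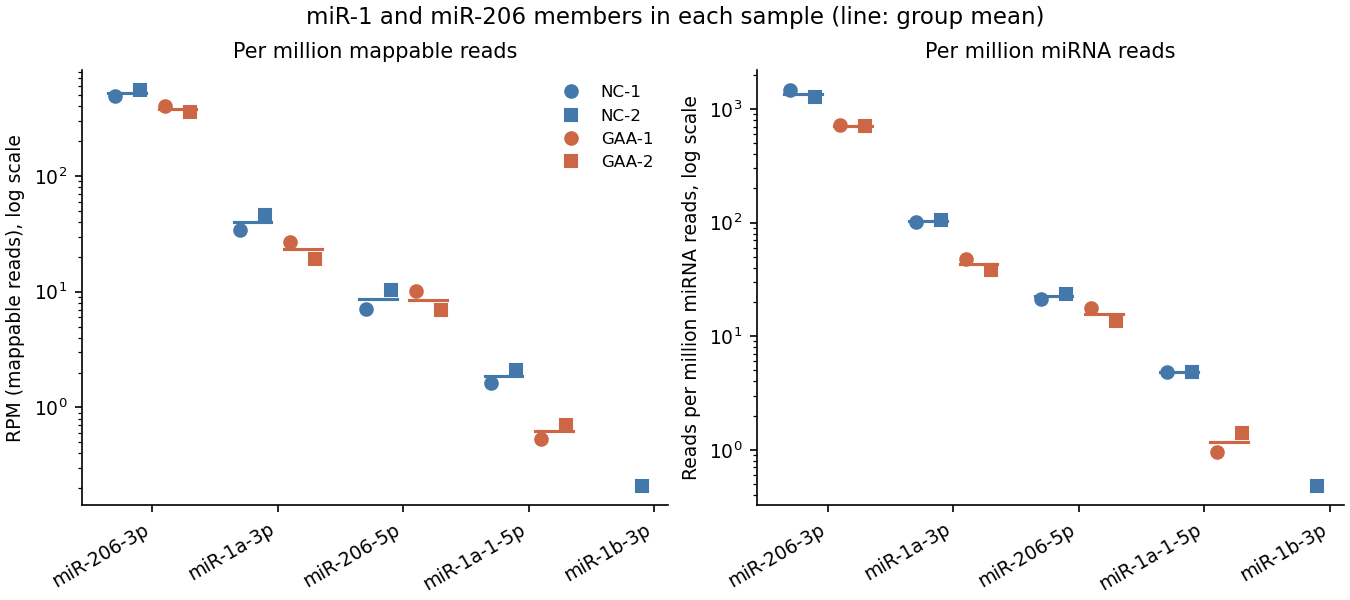
Level of each member in each sample on log axes, in RPM on the left and in miRNA RPM on the right, with lines at the group means. MiR-206-3p lies at 355 to 553 RPM and the other members follow in the same order in all samples. Samples without reads are not drawn, so miR-1b-3p shows only its single read in NC-2.

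The dominance of miR-206-3p over its paralog was large and similar in all samples. Of the reads of both guides, miR-206-3p held 93.5% (95% Wilson interval 92.5% to 94.4%) and 92.3% (91.3% to 93.2%) for NC, and 93.7% (92.7% to 94.6%) and 94.9% (93.8% to 95.7%) for GAA. Expressed as a ratio, there were 14.4 and 12.0 reads of miR-206-3p for each read of miR-1a-3p in NC and 15.0 and 18.4 in GAA. These intervals cover the sampling of reads only, and reads amplified by PCR are not independent molecules. MiR-1a-3p and miR-206-3p are near-identical, and the mismatches allowed when the reads were assigned are not given in the sources used here, so some reads may have been assigned to the other paralog.

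Summed over its 5 members, the family stood at 537 and 612 RPM in NC and at 443 and 382 RPM in GAA, a mean of 574 ± 53 RPM (SD, n = 2) against 413 ± 43 RPM (SD, n = 2). As a share of all miRNA reads it was 0.160% and 0.140% in NC and 0.0787% and 0.0758% in GAA. Both scales put each GAA sample under each NC sample. The mean share was 0.150% ± 0.014 for NC and 0.0773% ± 0.0021 for GAA (SD, n = 2 each). In bulk RNA, fewer myotubes expressing a miRNA and less of it per myotube cannot be told apart.

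The guide miR-206-3p was lower in both GAA samples than in both NC samples. The NC mean was 524 ± 42 RPM and the GAA mean 380 ± 36 RPM (SD, n = 2 each), 0.727 times that of NC. With limma over all 869 miRNAs and Benjamini-Hochberg adjustment, GAA over NC on the log2(RPM + 1) scale came to -0.46 ± 0.17 (SE; 95% interval -0.92 to 0.00; adjusted p = 0.284). In miRNA RPM the gap was wider. MiR-206-3p reached 1470 and 1268 miRNA RPM for NC against 720 and 705 for GAA, a difference of -0.94 ± 0.18 on the log2 scale (SE; adjusted p = 0.127 by limma). With limma voom on the recovered reads, with the miRNA reads as library size, its adjusted p was 0.0059, under the threshold of 0.01, while its log2 difference of -0.94 was not past 1 unit.

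MiR-1a-3p showed the same order of samples. The NC mean was 40.2 ± 8.3 RPM and the GAA mean 23.2 ± 5.6 RPM (SD, n = 2 each), a log2 difference of -0.77 ± 0.27 (SE; 95% interval -1.52 to -0.02; adjusted p = 0.276 by limma). In miRNA RPM it stood at 102.2 and 105.5 for NC and at 48.2 and 38.2 for GAA, where the replicates of NC lay much closer together than in RPM. The log2 difference then became -1.26 ± 0.23 (SE; 95% interval -1.78 to -0.73; adjusted p = 0.127 by limma). With limma voom, miR-1a-3p passed both thresholds at -1.27 (adjusted p = 0.0024). That fit set the spread of each miRNA by the trend over all miRNAs and gave no weight to its own replicates.

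The opposite arms rested on far fewer reads. MiR-1a-1-5p was lower in both GAA samples, by a log2 difference of -0.82 ± 0.21 (SE; 95% interval -1.41 to -0.23; adjusted p = 0.219 by limma), from 18 reads over both NC samples and 7 over both GAA samples. The pooled ratio of these reads per mappable read was 0.335 (95% interval 0.118 to 0.840, counting error only). At so low a level the 1 RPM added inside the log2 shrinks the difference. With 0.1 RPM added that of miR-1a-1-5p was -1.44 (adjusted p = 0.223 by limma). MiR-206-5p overlapped between the groups in RPM, with means of 8.73 ± 2.30 in NC and 8.48 ± 2.24 in GAA (SD, n = 2). Its log2 difference was -0.04 ± 0.30 (SE; adjusted p = 0.946 by limma), and the 95% interval of -0.88 to 0.80 leaves room for a fall as large as that of its guide. The difference was 0.20 without NC-2 and 0.21 without GAA-2. In miRNA RPM it had 21.2 and 23.7 for NC and 17.9 and 13.7 for GAA, a log2 difference of -0.49 ± 0.30 (SE; adjusted p = 0.777 by limma), and the groups did not overlap.

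**Figure D2:**
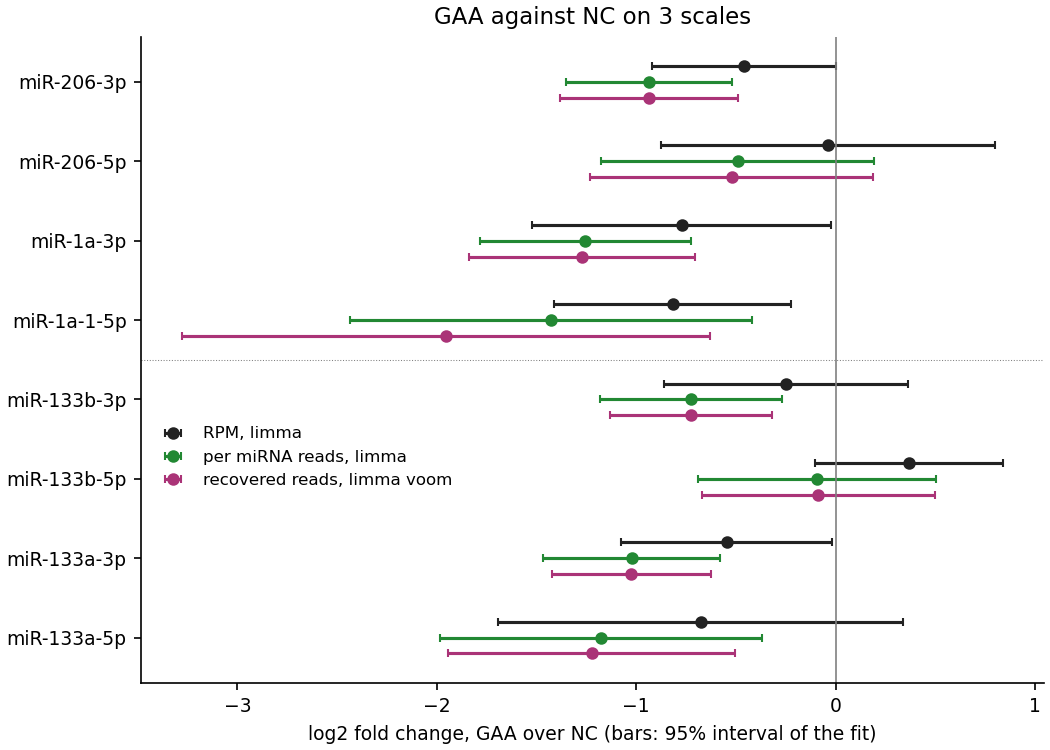
Log2 fold change of GAA over NC with the 95% interval of the fit, for 4 members above the dotted line and for the arms of the neighbouring miR-133 genes under it, from limma in RPM (black), limma in miRNA RPM (green) and limma voom on the recovered reads (purple). All 4 members have estimates at or under -0.04 on each scale, and the estimates in miRNA RPM lie to the left of those in RPM.

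The thresholds were those of the study, a false discovery rate under 0.01 together with a more than 1 unit change on the log2 scale. In RPM, limma brought 0 of the 5 members past them, the same share as over all 869 miRNAs (0%). At an unadjusted p under 0.05 there were 2 of 5, miR-1a-3p and miR-1a-1-5p, against 17.5% of all miRNAs, and 1.84% when only those lower in GAA are counted. In miRNA RPM 0 of 5 members passed the thresholds, against 0.115% of all miRNAs (1 miRNA, miR-208b-3p), and 3 of 5 had an unadjusted p under 0.05, all of them lower in GAA, against 8.06% in either direction and 3.68% lower in GAA. With limma voom 1 of 5 members passed, against 0.921% (8 miRNAs), and 3 of 5 had an unadjusted p under 0.05, against 9.67% in either direction and 4.83% lower in GAA.

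In RPM, 3 of 5 members had both GAA samples below both NC samples. This order held for 5.52% of all 869 miRNAs, while 38.6% had both GAA samples above both NC samples. In miRNA RPM it was 4 of 5 members, against 13.5% of all miRNAs in the same direction and 18% in the other. The median log2 fold change over the 5 members was -0.46 in RPM and -0.94 in miRNA RPM, beside 0.22 and 0.08 over all miRNAs. Among the 410 miRNAs with a mean of at least 1 RPM, 14 had both GAA samples lower and 260 had both higher in RPM. In miRNA RPM these counts were 78 and 97. The median log2 fold change over the 410 was 0.49 in RPM and 0.05 in miRNA RPM. Of the 410, miR-1a-1-5p had the 5th lowest fold change in RPM. That of miR-1a-3p was the 6th lowest and that of miR-206-3p the 13th lowest. In miRNA RPM these places were 4, 6 and 13. MiR-206-5p stood at place 36 on both scales.

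**Figure D3:**
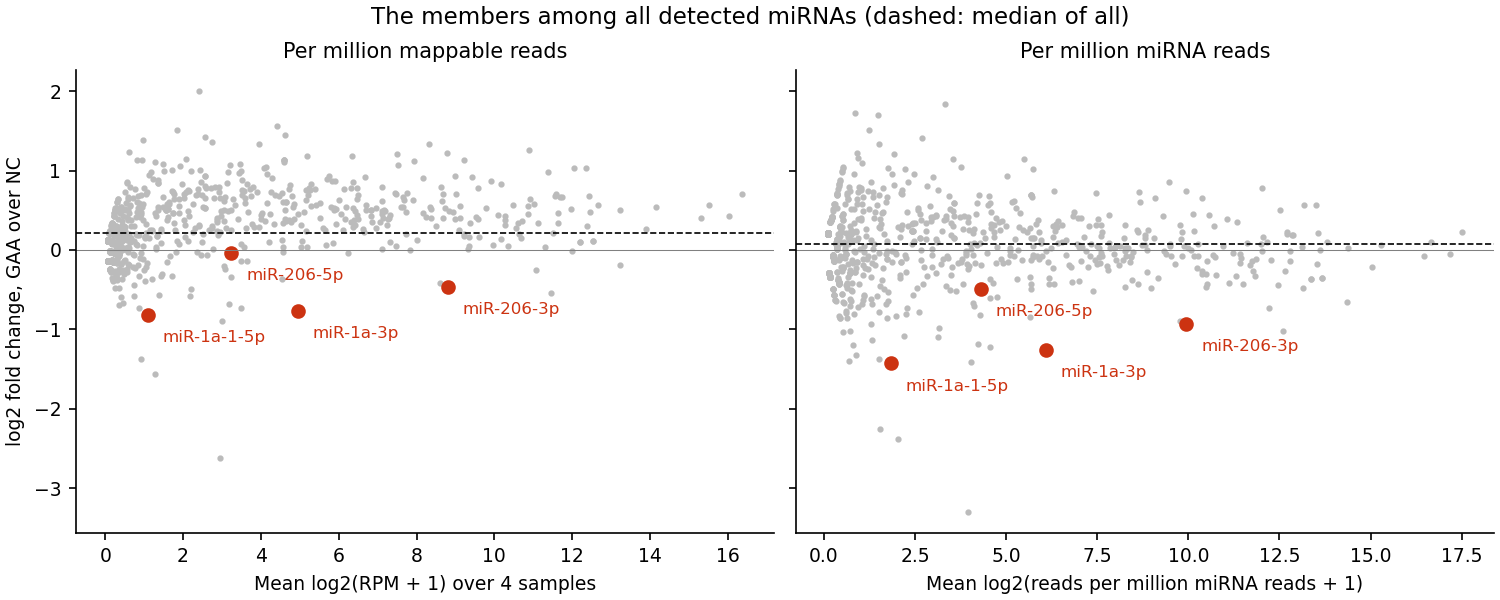
Log2 fold change of GAA over NC against mean level for all 869 miRNAs (grey), in RPM on the left and in miRNA RPM on the right, with 4 members in red and the median of all miRNAs dashed. The medians lie at 0.22 and 0.08, and miR-206-3p, miR-1a-3p and miR-1a-1-5p lie near the lower edge of the points in both panels.

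A ratio of reads within a sample does not depend on the number by which they were divided, and 6 ratios were compared between the groups. For those with a 5p arm, 0.1 RPM was added to both values before the log2 and the test, while the printed folds and shares are of the reads alone. With 2 samples against 2, an exact two-sided permutation test has 6 regroupings and cannot give a p below 0.333. The log2 ratio of miR-206-3p to miR-1a-3p was 3.85 and 3.59 in NC and 3.90 and 4.20 in GAA. It was 0.34 higher in GAA (exact p = 0.333, adjusted p = 0.50 over the 6 ratios), and the groups did not overlap but were separated by less than the spread within either. Without GAA-2 the difference was 0.19 and without NC-2 it was 0.21. A different change of the paralogs was thus not shown.

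Within Mir206, the 3p arm outnumbered the 5p arm by 69.5-fold and 53.4-fold in NC and by 40.3-fold and 51.5-fold in GAA. The 5p arm made up 1.42% (95% Wilson interval 1.02% to 1.97%) and 1.84% (1.39% to 2.42%) of the reads of both arms for NC, and 2.42% (1.87% to 3.13%) and 1.90% (1.40% to 2.59%) for GAA. The share was higher in both GAA samples, although GAA-2 and NC-2 were within their intervals of each other (exact permutation test on the log2 ratio of the arms, p = 0.333). The log2 ratio of 3p to 5p differed by -0.42 between GAA and NC, by -0.23 without NC-1 and by -0.25 without GAA-1.

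For miR-1a, the 3p guide outnumbered miR-1a-1-5p by 21.1-fold and 21.8-fold in NC and by 50.3-fold and 27.3-fold in GAA. Since miR-1a-3p reads also come from Mir1a-2, this ratio is not that of the arms of a single precursor, unlike the ratio for Mir206. The 5p arm made up 4.52% (95% Wilson interval 2.31% to 8.66%) and 4.39% (2.40% to 7.88%) of the reads in NC and 1.95% (0.665% to 5.57%) and 3.54% (1.39% to 8.75%) in GAA. These intervals overlapped in all 4 samples, so no difference was detectable at this depth. The log2 ratio of 3p to 5p was 0.65 higher in GAA (exact p = 0.333), but 0.05 higher with overlapping groups (exact p = 1) when 1 RPM was added in place of 0.1 RPM, and 0.23 higher without GAA-1 and 1.06 higher without GAA-2. The ratio of miR-206-5p to miR-1a-1-5p was 4.38 and 4.90 in NC and 18.7 and 9.75 in GAA, the widest gap among the 6 ratios at 1.40 on the log2 scale with 0.1 RPM added (exact p = 0.333, adjusted p = 0.50), and it rested on 3 and 4 reads of miR-1a-1-5p in GAA.

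**Figure D4:**
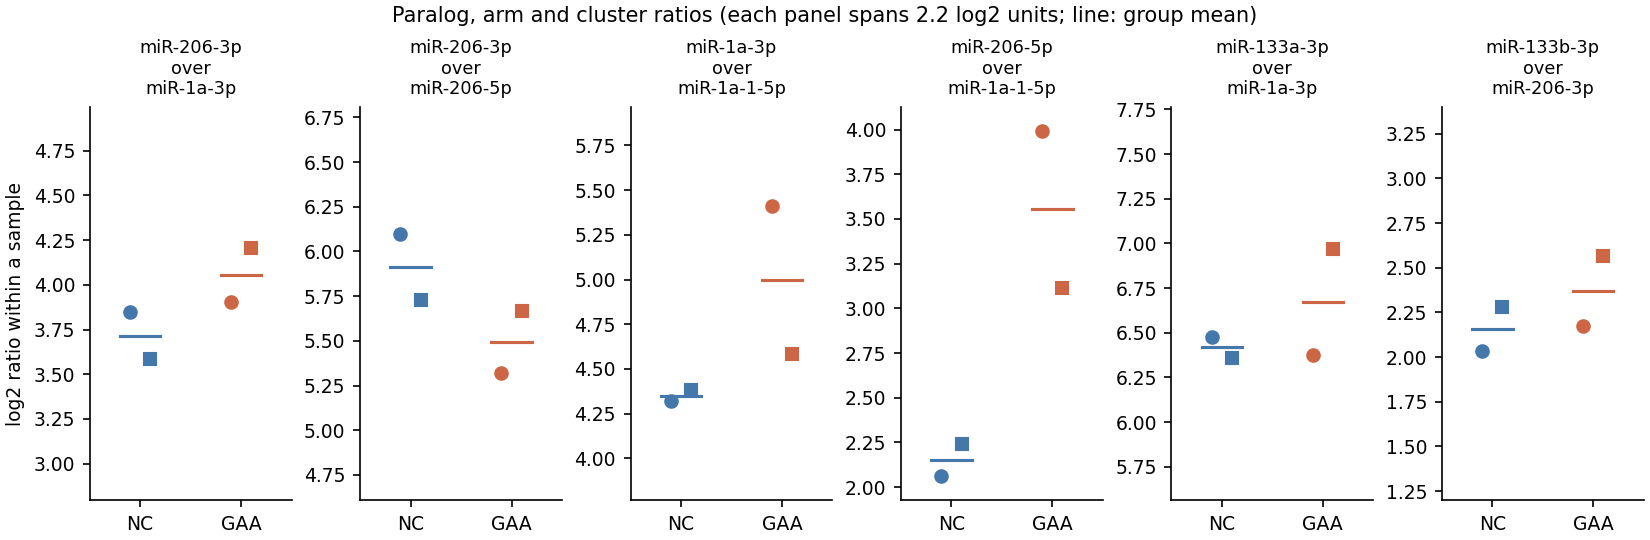
Log2 ratios within each sample for the paralogs, the arms (0.1 RPM added) and the neighbouring miR-133 guides, with lines at the group means and an axis of the same span in every panel. The first 4 ratios do not overlap between NC and GAA, whereas the ratios to miR-133a-3p and miR-133b-3p do.

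The neighbours were compared because each family guide is encoded a few kilobases from a miR-133 guide on the same strand. The miR-133 guides had far more reads. There were 89.1 and 82.2 reads of miR-133a-3p for each read of miR-1a-3p in NC and 83.0 and 125 in GAA, and 4.09 and 4.86 reads of miR-133b-3p for each read of miR-206-3p in NC and 4.51 and 5.92 in GAA. Both ratios overlapped between the groups (exact p = 0.667 for each). In RPM, miR-133a-3p stood at 3059 and 3787 in NC and at 2251 and 2409 in GAA, a log2 difference of -0.55 ± 0.19 (SE; adjusted p = 0.276 by limma). In miRNA RPM it stood at 9109 and 8677 for NC and 3998 and 4781 for GAA (log2 difference -1.02, adjusted p = 0.127 by limma), and it passed the thresholds with limma voom (-1.02, adjusted p = 0.000242). MiR-133b-3p overlapped between the groups in RPM, at 2020 and 2691 in NC and 1829 and 2104 in GAA. In miRNA RPM it did not, at 6016 and 6167 for NC and 3248 and 4176 for GAA (log2 difference -0.73, adjusted p = 0.327 by limma).

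Their opposite arms were on the level of the family's minor members. MiR-133a-5p was read 51 and 50 times in NC and 49 and 24 times in GAA, and miR-133b-5p 109 and 93 times in NC and 152 and 153 times in GAA. As for miR-206, the 5p arm of miR-133b took a higher share of the reads of both arms in the GAA samples. It was 1.08% and 0.725% in NC and 1.47% and 1.27% in GAA (exact permutation test, p = 0.333). The other arms did not share this direction. The 5p share of miR-133a overlapped between the groups, at 0.337% and 0.278% in NC and 0.390% and 0.176% in GAA. That of miR-1a-1-5p among the miR-1a reads was lower in both GAA samples. Of the 4 arms of the miR-133 neighbours, 2 had both GAA samples below both NC samples in RPM, 1 lay above and 1 overlapped. Over all 869 miRNAs, 5.52% lay below and 38.6% above in RPM. In miRNA RPM 3 lay below, 0 above and 1, miR-133b-5p, overlapped, against 13.5% below and 18% above over all miRNAs. On both scales 0 passed the thresholds with limma, against 0% of all miRNAs in RPM and 0.115% in miRNA RPM.

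The other muscle miRNAs, a list of 9 of which 8 had reads, did not share one direction. In RPM, 2 had both GAA samples below both NC samples, 4 above and 2 overlapped. Over all 869 miRNAs, 5.52% lay below and 38.6% above. With limma 0 of the list passed the thresholds, against 0% of all miRNAs. In miRNA RPM the tally turned, with 5 below, 2 above and 1 overlapping, and 1 passed. Over all miRNAs, 13.5% lay below and 18% above, and 0.115% passed. MiR-486a-5p and miR-486b-5p had identical values in every sample and are 1 signal under 2 names. They are the 2 that overlapped in RPM and 2 of the 5 below in miRNA RPM. The 2 above in miRNA RPM were their opposite arms, miR-486a-3p and miR-486b-3p, and no other miRNA of the list. The recovered reads of miR-486b-3p were not all whole (12.5 in NC-2), so these 2 may not be independent either. The median log2 fold change of the list was 0.19 in RPM and -0.29 in miRNA RPM. MiR-208b-3p stood at 18.7 and 17.8 RPM in NC and at 3.05 and 1.41 RPM in GAA, and its change passed in miRNA RPM (-3.30, adjusted p = 0.0064 by limma). MiR-378a-3p, from an intron of a metabolic coactivator gene, stood at 6869 and 9605 RPM in NC and 12568 and 10469 RPM in GAA. In miRNA RPM its groups overlapped, at 20455 and 22007 for NC and 22321 and 20776 for GAA.

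The miRNAs whose profile over the 4 samples was most like that of the family guides were found from the distance between log2(RPM + 1) values centred on their mean, among 320 miRNAs read 10 times or more in each of the 4 samples. For miR-206-3p the nearest was miR-133a-3p, at a root-mean-square distance of 0.12, followed by miR-210-3p at 0.14 and miR-1843a-3p at 0.16, against a median of 0.50 over the 320. For miR-1a-3p the nearest were miR-335-3p at 0.12, miR-133a-5p at 0.21 and miR-335-5p at 0.23, against a median of 0.66. The guides miR-206-3p and miR-1a-3p lay 0.21 from each other. MiR-335-3p had 9.34 and 10.6 RPM in NC and 5.57 and 4.24 RPM in GAA. With 4 samples these distances are a description, and any miRNAs lower in each GAA sample than in each NC sample will lie fairly close together.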

How the data were processed

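Per the methods, the authors removed adaptors, low-quality and repeated sequences and reads of unfit length, aligned the rest to GRCm38.p5 and quantified known miRNAs by miRDeep2 against miRBase 21.0. They deposited log2 values, log2(RPM + 1), relative to mappable reads, and a miRNA with no reads has no row. The column heading places the added 1 outside the logarithm, but base and offset follow from the values, which lay on multiples of 1 step per sample. The step returned the reads (95.4% to 96.0% of values whole within 0.01, all those of the 5 members), with 1653803 to 3134241 miRNA reads per sample. A level of 3 reads is 0.530 to 0.634 RPM.

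The groups were compared by limma 3.58.1 (R 4.3.3, mean-variance trend) over all 869 miRNAs, without a filter, a missing row being 0, with Benjamini-Hochberg adjustment. The study tested read counts, whereas the files hold log2 values, so limma voom on the recovered reads was only an alternative. Others were division by miRNA reads, median-of-ratios factors, a pseudocount of 0.1, a mean of at least 1 RPM, no trend, the replicate number as a block and leaving out samples. The fit was run on simulated data with little noise and changes far larger than those of the members. That run checked the code and says nothing of the power for these data. Named miRNAs were the 5 members, the miR-133 arms, lists of other muscle and of blood and liver miRNAs, and the 3 nearest profiles of each guide. The members and lists were chosen with earlier results of these data known. Positions came from GENCODE M21 and RefSeq.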

Additional observations from a re-analysis of the deposited data

How the results depend on the processing

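MiR-1a-3p, miR-206-3p and miR-1a-1-5p were lower in GAA under each of the 19 alternatives to the fit in RPM. Their log2 fold changes were -1.42 to -0.54, -1.04 to -0.36 and -1.95 to -0.70. Many of these signs were fixed in advance. A block, the filter on mean RPM and dropping the trend cannot move the difference itself. Leaving out 1 sample cannot turn its sign where the groups do not overlap, as for these members. MiR-206-5p was lower in 17 and higher in 2, at 0.20 without NC-2 and 0.21 without GAA-2. Leaving out 1 sample at a time gave, in RPM, -1.01 to -0.54 for miR-1a-3p, -0.56 to -0.36 for miR-206-3p, -0.28 to 0.21 for miR-206-5p and -0.94 to -0.70 for miR-1a-1-5p. In miRNA RPM the same samples left out, a setting added after seeing the data, gave -1.42 to -1.09 for miR-1a-3p and -1.04 to -0.83 for miR-206-3p. Past the thresholds in RPM there were 0 miRNAs with limma (152 at an unadjusted p under 0.05). There was 1 with division by miRNA reads, all or without the top 5 miRNAs, and 1 with median-of-ratios factors, 8 with limma voom, and 0 after leaving out any 1 sample on either scale. In those last fits 1 group had a lone sample, assumed to vary like the other group, so their 0 says nothing of stability.

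Whether the replicate numbers pair the samples cannot be settled with 2 samples per group. The deviations of same-numbered samples correlated at -0.15 over 323 miRNAs, which are not independent replicates. The replicate block gave 0 miRNAs in RPM. The block with division by miRNA reads gave 6, among them miR-1a-3p at -1.26 (adjusted p = 0.0023 with limma), in a fit where every miRNA took the common spread, and put miR-206-3p at -0.94 (adjusted p = 0.0071), past the FDR but not the fold threshold. The crossed pairing, added after seeing the data, gave 0 in RPM and 6 in miRNA RPM. MiR-1a-3p was called with limma voom at -1.27. The differences of the shares of miRNA reads moved by less than 1.5 times without any 1 sample for miR-1a-3p, miR-206-3p and miR-1a-1-5p. The log2 ratio of miR-1a-3p to miR-1a-1-5p moved from 0.65 to 0.05 with 1 RPM added in place of 0.1 RPM. With 3 to 10 reads per sample, miR-1a-1-5p is limited by depth. No group had enough samples for a test of outlying values.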
